A study of Mus musculus with 9 samples.

Results

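Ybx2, Cpeb1, Dazl, Btg4, Zar1, Mos, Elavl2 and Rbpms2 are 8 genes whose products store, translate or clear the mRNAs that a growing oocyte lays down. They were chosen by gene symbol for that role, each read from its probe set with the highest mean signal. They are 8 of the 22231 genes with 1 symbol on the arrays, and all 8 had a probe set. The measurements were made on ovarian RNA of 9 mice aged 3 weeks: 3 wild type, 3 heterozygous for a loss of Taf4b and 3 labelled as Taf4b knockout, with 1 array per mouse. TAF4B is a subunit of the general transcription factor TFIID that is enriched in gonads. Each RNA was hybridised to its own GeneChip Mouse Gene ST array, and the values are RMA-normalised intensities on a linear scale. The strain, the design of the Taf4b allele and the way the ovaries were dissected are not given in the sources used here.

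A mammalian oocyte shuts off transcription when it reaches full size. Meiotic maturation and the first steps of the embryo then run on maternal mRNAs made earlier, which are masked by proteins, kept with short poly(A) tails and translated at set times when the tails are lengthened. Proteins that bind sequences in the 3′ untranslated region decide which mRNAs are held back or released, and a deadenylation step later clears them. At 3 weeks the mouse ovary holds many growing oocytes that carry these transcripts, before the first ovulation.

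The targeted gene was read first, as a check of the labels. Taf4b (probe set 10454077) had intensities of 494, 635 and 723 in wild type 1, 2 and 3, of 456, 595 and 574 in the heterozygotes, and of 332, 626 and 403 in the arrays labelled knockout. Knockout 2 therefore sat inside the wild-type range, against its label, while knockout 1 and 3 lay below every other array. Heterozygote 2 and 3 also sat inside the wild-type range, and heterozygote 1 lay below it. The difference of labelled knockout and wild type was -0.48 on the log2 scale (SE 0.23, limma adjusted p = 0.514, exact two-sided permutation p = 0.2 with 3 arrays a group). For heterozygote minus wild type it was -0.18 (SE 0.23, limma adjusted p = 0.881, exact permutation p = 0.4). Whether this probe set lies in the deleted stretch of the gene was not known, so the check could not settle the labels of either group. The members' own differences that rest on knockout 2 are given with and without it. The marker lists, the pathway lists and the counts relative to oocyte markers are given only with it. The median intensity of an array lay between 123.7 and 126.9. Heterozygote 1 correlated least with the other arrays (Pearson r of log2 intensities across probe sets between 0.984 and 0.988, against up to 0.998 for the others).

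The promoters of the members differed in base composition, and 5 windows are shown that run from the poorest to the richest in G and C. RefSeq windows of build GRCm38.p6, from 250 bases before to 50 bases after an annotated start, were matched by symbol for 7 of the 8 members, with 2 windows for Ybx2, 6 for Elavl2 and 1 for each of Cpeb1, Dazl, Btg4, Zar1 and Rbpms2. Mos had none in the table. The windows below run 5′ to 3′ on the gene's strand, and capitals mark matches on either strand. The motifs marked are the TATA box with the letters TATAAA. The CCAAT box is marked by its own letters. An E-box has the letters CANNTG. The NOBOX element has the letters TAATTG. The Cpeb1 window lies at chr7:81454709-81455008 on the minus strand, that of Dazl at chr17:50293571-50293870 on the minus strand, that of Btg4 at chr9:51115751-51116050 on the plus strand that of Zar1 at chr5:72581035-72581334 on the minus strand and that of Rbpms2 at chr9:65630332-65630631 on the plus strand.
Cpeb1: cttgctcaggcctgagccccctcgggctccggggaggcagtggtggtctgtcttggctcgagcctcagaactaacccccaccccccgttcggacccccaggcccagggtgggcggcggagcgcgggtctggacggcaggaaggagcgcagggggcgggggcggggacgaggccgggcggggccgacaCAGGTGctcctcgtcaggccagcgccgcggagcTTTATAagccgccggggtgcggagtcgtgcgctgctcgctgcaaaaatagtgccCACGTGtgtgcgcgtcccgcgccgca
Dazl: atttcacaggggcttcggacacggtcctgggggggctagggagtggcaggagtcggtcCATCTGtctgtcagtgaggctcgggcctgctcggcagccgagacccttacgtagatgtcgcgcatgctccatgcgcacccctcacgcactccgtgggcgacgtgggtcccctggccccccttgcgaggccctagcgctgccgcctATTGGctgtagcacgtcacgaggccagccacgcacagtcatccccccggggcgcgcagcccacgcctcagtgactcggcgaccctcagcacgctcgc
Btg4: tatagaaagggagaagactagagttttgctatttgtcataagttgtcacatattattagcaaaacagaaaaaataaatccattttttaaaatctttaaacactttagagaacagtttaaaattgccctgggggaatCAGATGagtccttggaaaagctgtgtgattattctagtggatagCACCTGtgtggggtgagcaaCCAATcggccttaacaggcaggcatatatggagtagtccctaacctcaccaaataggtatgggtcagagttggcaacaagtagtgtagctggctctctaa
Zar1: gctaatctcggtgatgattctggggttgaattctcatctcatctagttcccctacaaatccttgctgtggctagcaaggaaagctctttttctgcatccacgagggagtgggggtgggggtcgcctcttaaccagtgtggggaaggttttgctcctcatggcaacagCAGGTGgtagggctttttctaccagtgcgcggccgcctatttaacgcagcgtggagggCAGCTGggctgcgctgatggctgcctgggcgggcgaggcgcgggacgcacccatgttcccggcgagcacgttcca
Rbpms2: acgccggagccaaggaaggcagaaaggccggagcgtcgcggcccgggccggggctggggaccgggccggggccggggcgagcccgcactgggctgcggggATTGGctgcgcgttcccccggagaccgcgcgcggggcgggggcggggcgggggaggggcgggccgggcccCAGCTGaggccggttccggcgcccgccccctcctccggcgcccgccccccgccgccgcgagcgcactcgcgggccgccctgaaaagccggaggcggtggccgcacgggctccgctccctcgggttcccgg

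In the Btg4 window G and C made up 39% of the bases and there was 1 CpG. The Zar1 window had 58.7% G and C with 17 CpGs, that of Dazl 68.7% with 28, and that of Cpeb1 72.7% with 33. Rbpms2 was the richest, with 83.3% and 48 CpGs. The medians over 32851 mouse windows of the same length were 52.7% and 7 CpGs, so Btg4 lay below the median and the others named here above it. Cpeb1 held the single TATA box among the members (13.6% of all windows hold one). An E-box was present in 12 of the 13 member windows, against 72.3% of all windows, and every one of the 7 genes had at least 1 window with it. A CCAAT box occurred in 9 of the 13 windows, from 5 genes, against 37.4% of all windows. A GC box (GGGCGG) likewise occurred in 9 of 13, against 35.7%. The 13 windows are not independent, since 5 of the 6 Elavl2 windows overlap another. Neither the NOBOX element nor an AP-1 site (TGANTCA) matched in any of the 13 windows, and 8% and 7.81% of all windows held them. A match or its absence describes these letters in this window and does not show a bound site.

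The storage proteins come first. YBX2 (also called MSY2) is a germ cell Y-box protein that coats and stabilises maternal mRNA. Its probe set, 10377662, gave intensities of 473, 421 and 382 in the wild types, of 336, 349 and 284 in the heterozygotes and of 364, 259 and 354 in the arrays labelled knockout. The means were 425 ± 46.0, 323 ± 34.6 and 326 ± 58.3 (SD, n = 3 each). Every heterozygote and every labelled knockout lay below the lowest wild type, and the heterozygous and labelled knockout arrays overlapped. Ybx2 was the only member of the 8 whose labelled knockout arrays did not overlap the wild types, where 7.77% of all probe sets were separated downward.

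ZAR1, an oocyte zinc-binding protein, binds maternal transcripts and takes part in their storage. Zar1 (probe set 10530496) had intensities of 1042, 982 and 866 in the wild types, of 868, 772 and 727 in the heterozygotes and of 954, 609 and 893 in the arrays labelled knockout. The highest heterozygote, at 868, just passed the lowest wild type at 866, and only knockout 2 fell clearly under both groups. Zar1 was the only member with a further probe set, 10522391, whose log2 differences had the same signs and were smaller in the comparisons with wild type, -0.18 for heterozygote minus wild type (SE 0.11) and -0.12 for labelled knockout minus wild type (SE 0.11).

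CPEB1 binds the cytoplasmic polyadenylation element and first represses, then activates, the translation of its targets. The intensities of Cpeb1 (probe set 10565089) were 987, 917 and 733 in the wild types, 665, 685 and 595 in the heterozygotes and 775, 527 and 797 in the arrays labelled knockout. The heterozygotes lay wholly below the wild types. The 797 and 775 of knockout 3 and 1 fell between wild type 3 and wild type 2, whereas the 527 of knockout 2 was the lowest of the 9 arrays.

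DAZL, a germ cell RNA-binding protein, drives translation of a set of oocyte mRNAs during maturation. For Dazl (probe set 10451721) the intensities were 568, 540 and 450 in the wild types, 400, 387 and 417 in the heterozygotes and 522, 328 and 540 in the arrays labelled knockout. Again the 3 heterozygotes were below the 3 wild types, and again the labelled knockout arrays fell on both sides, with knockout 2 the lowest of all arrays and the other two within the wild-type range.

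ELAVL2, a member of the Hu family, is known both from neurons and from mouse oocytes, where it holds mRNAs in a less translated state. Elavl2 (probe set 10514352) read 332, 310 and 227 in the wild types, 223, 251 and 218 in the heterozygotes and 296, 234 and 341 in the arrays labelled knockout. Its 3 genotypes overlapped, and wild type 3 was closer to the heterozygotes than to the other wild types. Mean intensity was 290 ± 55.7 for wild type, 231 ± 17.6 for heterozygote and 290 ± 53.8 for labelled knockout (SD over 3 arrays).

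RBPMS2 is an RNA-binding protein known from developing smooth muscle and, in zebrafish, from oocytes. Rbpms2 (probe set 10586433) had intensities of 572, 506 and 436 in the wild types, of 391, 375 and 391 in the heterozygotes and of 486, 347 and 527 in the arrays labelled knockout. The heterozygotes spanned a narrow range below all wild types (386 ± 9.27, SD, n = 3). Knockout 2 was again the lowest of the 9 arrays.

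BTG4 brings the CCR4-NOT deadenylase to maternal mRNAs and so clears them in the maturing egg. Btg4 (probe set 10585268) read 1422, 1432 and 1306 in the wild types, 1088, 1279 and 1196 in the heterozygotes and 1438, 1103 and 1394 in the arrays labelled knockout. It varied least among the 8 genes, with an SD of 0.159 on the log2 scale over the 9 arrays against 0.241 to 0.286 for the others. The heterozygotes were all below the wild types. Knockout 1 had the highest value of any array.

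MOS is the kinase that starts the MAP kinase cascade holding the mature egg in metaphase, and its mRNA is itself stored and translated on cue. Mos (probe set 10511330) had intensities of 237, 221 and 185 in the wild types, of 176, 177 and 141 in the heterozygotes and of 212, 157 and 221 in the arrays labelled knockout. The heterozygotes lay below the wild types and knockout 1 and 3 lay among the wild types.

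**Figure D1:**
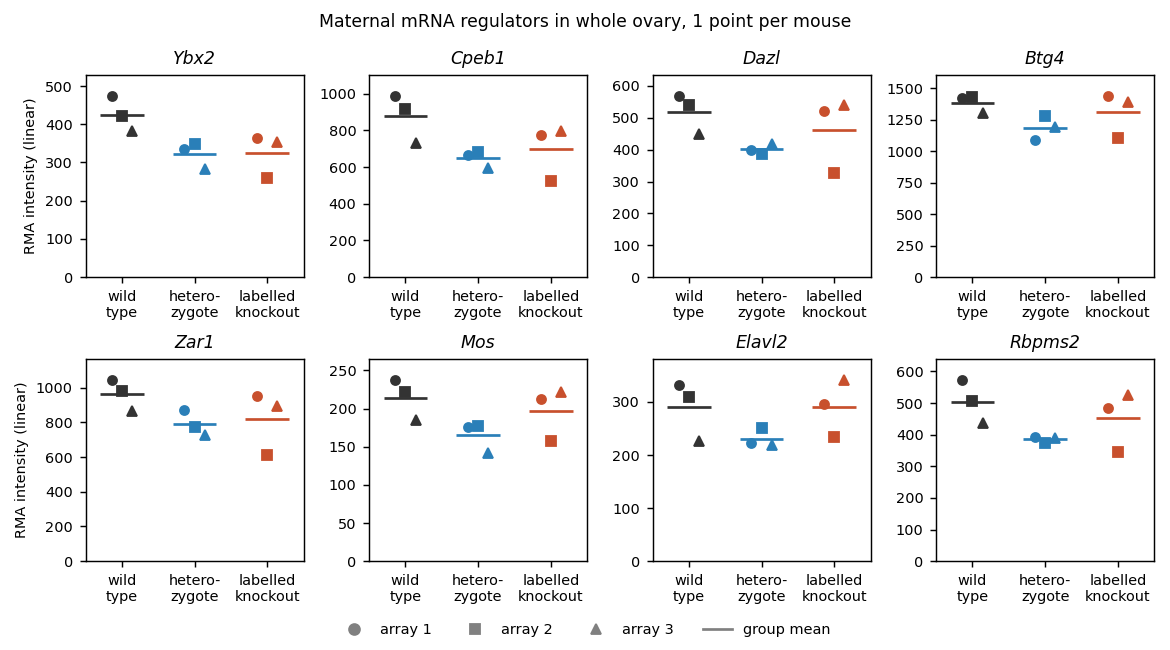
RMA intensity (linear scale, arbitrary units) of each of the 8 genes on every array, grouped by labelled genotype, with 1 point per mouse, a bar at the mean of 3 arrays and the symbol giving the array's number. The heterozygotes lie wholly below the wild types for 6 genes, as for 6.43% of all probe sets. Within the labelled knockout group knockout 2 is the lowest for all 8.

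The arrays ranked alike across genes. Wild type 1 was the highest of the 9 arrays for 6 of the 8 members. Knockout 2 was the lowest for 5 and among the lowest 2 for 7. Expressed as a percent of the wild-type mean, knockout 2 held between 60.0% (Cpeb1) and 80.7% (Elavl2). The mean of knockout 1 and 3 lay between 84.4% (Ybx2) and 109.9% (Elavl2), and the mean of the 3 heterozygotes between 73.8% (Cpeb1) and 85.6% (Btg4). The members' log2 intensities correlated with each other over the 9 arrays, with a Pearson r from 0.661 (Ybx2 with Elavl2) to 0.979 (Dazl with Rbpms2) and a median of 0.865 over the 28 pairs. These correlations are descriptions across arrays that hold the same tissue and 3 genotypes.

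**Figure D2:**
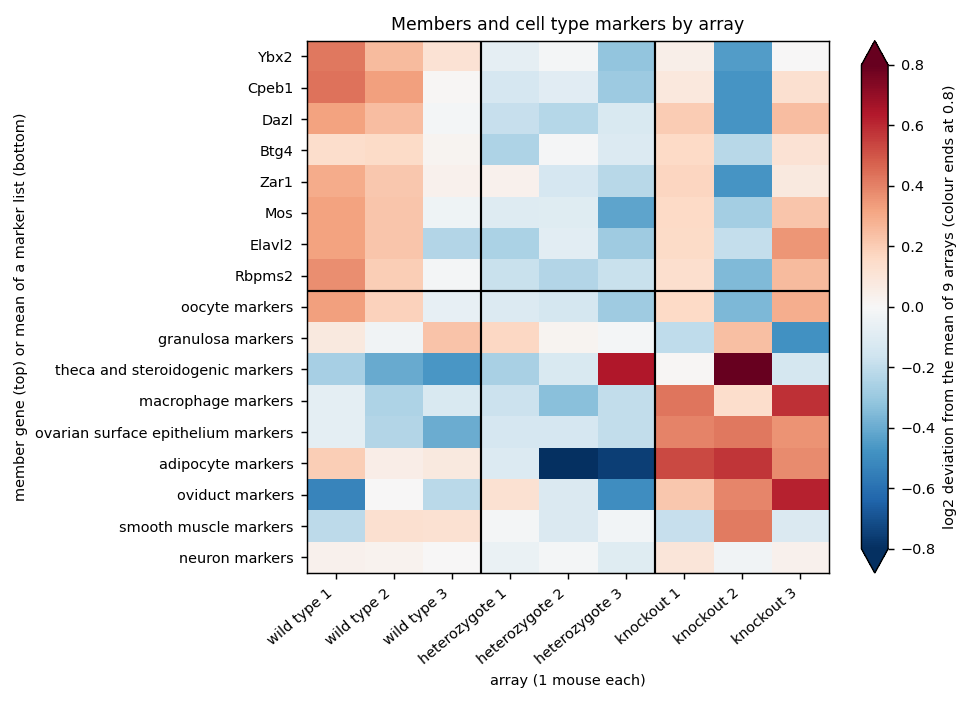
Heat map with 1 column per array, whose colour is the log2 intensity minus its mean over the 9 arrays (scale ending at 0.8), for each member (top rows) and for the mean of each marker list (bottom rows). Wild type 1 and 2 are high for all 8 genes and knockout 2 is low for all 8, as for the oocyte markers, while the theca and steroidogenic markers are highest on knockout 2.

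Heterozygotes and wild types were compared to ask what 1 missing copy of Taf4b goes with. All 8 members were lower in the heterozygotes, by 0.23 (Btg4) to 0.43 (Cpeb1) on the log2 scale. The members' median log2 difference was -0.37, against 0.0030 over all 25100 probe sets tested. A share of 48.7% of all probe sets was lower by any amount. In 6 genes (Ybx2, Cpeb1, Dazl, Btg4, Mos and Rbpms2) no heterozygote array reached the lowest wild type, and 6.43% of all probe sets were separated in that direction. Many other oocyte genes showed the same separation, as given below with the oocyte markers. Cpeb1 differed by -0.43 (SE 0.17, limma unadjusted p = 0.0307, adjusted p = 0.815). Ybx2 differed by -0.40 and Rbpms2 and Mos by -0.38 each, with limma's unadjusted p at 0.0231, 0.0353 and 0.0365. These 4 of 8 members had an unadjusted p under 0.05 with a lower level, against 3.04% of all probe sets. None of the 8 passed at an adjusted p of 0.05, where all had 0.815. No probe set on the array passed either (0 of 25100, 0%, with 1443 at an unadjusted p under 0.05). Dazl differed by -0.36, Elavl2 by -0.31, Zar1 by -0.29 and Btg4 by -0.23, with unadjusted p between 0.0642 and 0.108.

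Without heterozygote 1, the array that correlated least with the rest, 7 members (all but Elavl2) had heterozygotes wholly below the wild types, where 12.5% of all probe sets were so separated. In the authors' deposited table for these genotypes, 5 of the 8 members had a p under 0.05 and the p of the 8 ran from 0.0324 (Dazl, wild type over heterozygote fold 1.29) to 0.156 (Elavl2, fold 1.26). In the authors' deposited table the 3 without were Elavl2, Mos and Zar1. In the authors' tables that compare labelled knockouts with wild types and with heterozygotes, 0 of 8 members had a p under 0.05. The lowest authors' p was 0.0804 (Ybx2) against wild types and 0.143 (Elavl2) against heterozygotes. A share over all probe sets was not counted for the authors' tables. Those p-values carry no adjustment for the number of probe sets.

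The arrays labelled knockout were compared with the wild types, the contrast that the labels set up as complete loss of Taf4b. Ybx2 had the largest difference of the 8, -0.40 on the log2 scale (SE 0.14, limma unadjusted p = 0.0230, adjusted p = 0.376). Cpeb1 followed with -0.34 (SE 0.17, adjusted p = 0.516) and Zar1 with -0.26 (SE 0.16, adjusted p = 0.634). The remaining log2 differences were smaller than 0.2, at -0.19 for Dazl, -0.17 for Rbpms2, -0.13 for Mos, -0.09 for Btg4 and 0.01 for Elavl2. None of the 8 passed limma's threshold, which 19 of the 25100 probe sets did (0.0757%). In all, 7 of 8 members were lower by any amount, against 51.7% of probe sets, with a median log2 difference of -0.18 against -0.0040. Ybx2 was the 1 member with an unadjusted p under 0.05 and a lower level, against 5.77% of probe sets, and the 1 member without overlap, against 7.77%.

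For 4 members the direction of this difference rested on knockout 2. Without it 3 members, Ybx2, Cpeb1 and Zar1, were still below the wild types in mean log2 level. Elavl2 then differed by 0.15, Dazl differed by 0.04, Btg4 by 0.03, Mos by 0.02 and Rbpms2 by 0.01 on the log2 scale. Ybx2 stayed the 1 member with no overlap, where 14.8% of all probe sets were separated in that direction. Its log2 difference was then -0.24, that of Cpeb1 -0.15 and that of Zar1 -0.06, the last down from -0.26.

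**Figure D3:**
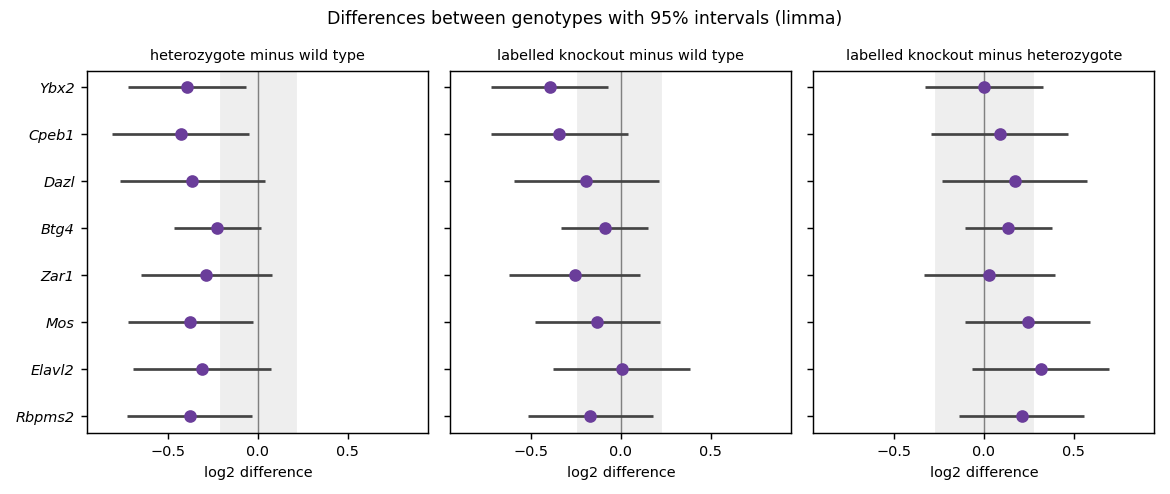
Log2 difference of each member in the 3 comparisons of genotypes, as points with 95% limma intervals, over a grey band for the 5th to 95th percentile of all probe sets. All 8 points lie below 0 for heterozygote minus wild type, and Ybx2 and Cpeb1 are lowest for labelled knockout minus wild type.

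Labelled knockouts and heterozygotes share the wild types as their reference, so their own contrast was read separately. Mean levels of 7 members were higher in the arrays labelled knockout, and Ybx2 differed by -0.00027 on the log2 scale. The largest log2 differences were those of Elavl2 (0.32), Mos (0.25) and Rbpms2 (0.21), followed by Dazl (0.17) and Btg4 (0.14), with Cpeb1 at 0.09 and Zar1 at 0.03. Every member's arrays overlapped between these groups, so that 0 were separated downward against 8.12% of all probe sets. No member passed limma's threshold (adjusted p from 0.418 to 1), which 6 probe sets did (0.0239%). No member had an unadjusted p under 0.05 with a lower level either, against 6.57% of probe sets. By any amount 1 of 8 was lower, against 54.5%.

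Leaving out knockout 2 changed these counts. Knockout 1 and 3 then lay above all 3 heterozygotes for 8 of 8 members, where 18.4% of all probe sets were separated upward. Dazl then differed by 0.40 (limma adjusted p = 0.0860) and Rbpms2 by 0.39 (adjusted p = 0.111), so that neither passed the threshold. The count of 8 was made after the data were seen, and knockout 2 was the lowest labelled knockout for all 8 members. It was not particular to them. The mean log2 deviation of the oocyte markers, described below, was 0.16 and 0.29 on knockout 1 and 3. On the heterozygotes it was -0.11, -0.14 and -0.28.

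The members were next set beside the other oocyte transcripts of the same arrays. In whole ovaries, fewer oocytes and less RNA per oocyte cannot be told apart. The 14 oocyte markers, among them the zona pellucida genes Zp1, Zp2 and Zp3, the growth factor genes Gdf9 and Bmp15 and the maternal-effect gene Nlrp5, were all measured. All 14 were lower in the heterozygotes than in the wild types, with a median log2 difference of -0.33. Of the 14, 4 had an unadjusted limma p under 0.05. For Zp1, Gdf9, Bmp15, Oosp1, Nlrp5, Tcl1, Nobox, Oog1 and H1foo every heterozygote lay below the lowest wild type. For Zp2, Zp3, Ooep, Figla and Padi6 the arrays overlapped. The separation was therefore not particular to the members. Between labelled knockout and wild type 9 of 14 were lower (median -0.19), against 51.7% of all probe sets. Between labelled knockout and heterozygote 12 of 14 were higher (median 0.20), where 54.5% of all probe sets were lower. Their summed intensity ranged from 29231 to 38593 in the wild types, from 24553 to 28249 in the heterozygotes and from 25345 to 39627 in the arrays labelled knockout. None of the 14 passed limma's threshold in any comparison.

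The mean deviation from the 9-array mean, on the log2 scale, went the same way for both sets. For the members it was 0.33, 0.23 and -0.02 in the wild types, -0.14, -0.11 and -0.24 in the heterozygotes and 0.14, -0.36 and 0.18 in the arrays labelled knockout. For the oocyte markers it was 0.33, 0.18 and -0.06, then -0.11, -0.14 and -0.28, and then 0.16, -0.36 and 0.29. The array with the lowest mean was knockout 2 in both sets and the one with the highest was wild type 1.

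The members were therefore also expressed relative to the oocyte markers, as log2 intensity minus the mean log2 intensity of the 14 markers on the same array. This lowered the SD over the 9 arrays for every member, from 0.251 to 0.0618 for Rbpms2, from 0.252 to 0.0668 for Mos and from 0.272 to 0.0871 for Dazl. The SD of Btg4 moved least, from 0.159 to 0.140. On the relative scale Ybx2 had the largest SD, 0.144, after 0.265 on its own.

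On this relative scale, Ybx2 differed by -0.28 between labelled knockout and wild type (SE 0.07) and Cpeb1 by -0.22 (SE 0.03). Rbpms2 differed by -0.05 (SE 0.02), with knockout 2 barely below wild type 2 (0.0087 against 0.0127, centred on the mean of the 9 arrays). In these 3 of 8 members no labelled knockout array overlapped the wild types, a separation that 1.04% of all probe sets and 3 of the 14 markers themselves showed. In this and later relative counts the share over all probe sets is no baseline for oocyte genes. The same oocyte mean is subtracted from every probe set, also from those of other cells. Each of the 3 had an exact two-sided permutation p of 0.1, the smallest that 3 arrays against 3 allow, so that no member could pass a threshold of 0.05. Zar1 differed by -0.14 and Elavl2 by 0.13 (exact permutation p = 0.2 each), with overlapping arrays. Dazl, Mos and Btg4 differed by -0.07, -0.01 and 0.03.

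Relative to the markers, the heterozygotes' differences from wild type lay between -0.10 and 0.10. Cpeb1, at -0.10 (SE 0.03, exact permutation p = 0.1), was the 1 member without overlap, against 0.0837% of all probe sets and 1 of the 14 markers. Ybx2 differed by -0.07 (SE 0.06), and the other 6 lay between -0.05 and 0.10. Between labelled knockout and heterozygote 2 members, Ybx2 at -0.21 (SE 0.08) and Cpeb1 at -0.12 (SE 0.03), were lower without overlap (exact permutation p = 0.1 each), against 4.19% of all probe sets and 3 of 14 markers. Leaving out any single array kept the relative difference of Ybx2 between -0.31 and -0.22 and that of Cpeb1 between -0.24 and -0.20 for labelled knockout minus wild type.

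The size of these values depended on the reference. With Zp1, Zp2 and Zp3 alone in place of the 14 markers, the relative difference of labelled knockout and wild type was -0.47 for Ybx2, -0.42 for Cpeb1, -0.33 for Zar1, -0.26 for Dazl and -0.24 for Rbpms2. In these 5 of 8 members the labelled knockout arrays lay wholly below the wild types, against 1.68% of all probe sets, a count made after the values were seen. A share among other oocyte genes was not counted for this reference. Mos differed by -0.21 with overlapping arrays. The difference was -0.16 for Btg4 and -0.07 for Elavl2, which were above 0 with all markers. With the zona genes as reference no heterozygote group lay wholly below the wild types (0 of 8, against 0.0199% of all probe sets). From the heterozygotes 6 of 8 members, all but Btg4 and Elavl2, were separated downward in the labelled knockouts, against 17% of all probe sets.

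**Figure D4:**
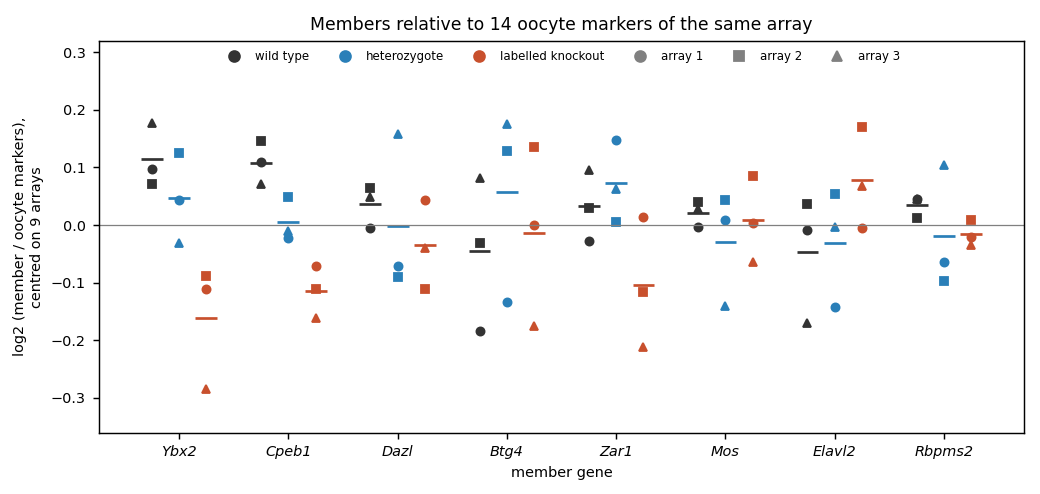
Log2 intensity of each member minus the mean log2 intensity of the 14 oocyte markers on the same array, centred on each gene's mean over the 9 arrays, with colour for the labelled genotype, symbol for the array's number and bars at group means. The labelled knockout arrays, knockout 1 and 3 included, lie below the wild types for Ybx2, Cpeb1 and Rbpms2. For Rbpms2 the margin is very small, with knockout 2 at 0.0087 and wild type 2 at 0.0127.

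Markers of other cell types also differed between the genotypes. For labelled knockout minus wild type, all 6 macrophage markers (median log2 difference 0.46), all 5 of the ovarian surface epithelium (0.65), all 6 of theca and steroidogenic cells (0.68), all 5 of adipocytes (0.33) and all 4 of the oviduct (0.27) were higher, and 7 of 8 granulosa markers were lower (-0.14). In that comparison 51.7% of all probe sets were lower by any amount. No marker passed limma's threshold. Summed macrophage intensity was 962.5 to 1069 in the wild types, 890.8 to 996.2 in the heterozygotes and 1266 to 1846 in the arrays labelled knockout. For the surface epithelium it was 1613 to 2079, 1866 to 1910 and 2742 to 2936 in the same order. The theca sum was 2707 to 2928, 3057 to 6920 and 3359 to 9424, and that of granulosa 20931 to 22056, 20956 to 22760 and 16365 to 22761. Adipocyte sums were 2051 to 2293 in the wild types, 976.7 to 1753 in the heterozygotes, where all 5 markers were lower (median -0.78), and 2786 to 3234 in the arrays labelled knockout. The oviduct sums were 306.1 to 451.6, 302.3 to 496.9 and 600.6 to 848.4. Their part in the members' differences was not tested. RMA intensities on this scale are always above 0, so detection of a marker was not judged. The dimmest oviduct marker had a mean of 17.0 in the heterozygotes.

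Elavl2 is also a neuronal gene and Rbpms2 one of smooth muscle, so markers of both were read. The 6 neuronal markers summed to 724.3 to 780.5 in the wild types, 633.9 to 713.9 in the heterozygotes and 734.0 to 882.6 in the arrays labelled knockout. The neuronal median log2 difference was -0.10 for heterozygote minus wild type and 0.03 for labelled knockout minus wild type. The 5 smooth muscle markers summed to 11164 to 12712, 11818 to 12058 and 11539 to 13922, with medians of -0.01 and 0.03. Neither list had a marker past limma's threshold.

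Genes whose log2 intensities followed the members most closely over the 9 arrays were sought among 19171 genes with 1 symbol, as a description, leaving out the members themselves and predicted genes. Closest to the members' mean was Klhl8 (Pearson r = 0.995), followed by Kpna7, an importin of oocytes and early embryos (0.990), Bpgm, which makes bisphosphoglycerate (0.989), Rfpl4 (0.988), Oas1e (0.988) and Tcl1b1 (0.985). Rspo2, a secreted activator of WNT signalling, reached 0.984, Aass, an enzyme of lysine breakdown, 0.980, Fbxw21 0.980 and Miox, the inositol oxygenase, 0.979. Bnc1, a zinc finger gene, was the closest to both Dazl (0.981) and Rbpms2 (0.988). The closest genes were Stom for Ybx2 (0.979), Tcl1b1 for Cpeb1 (0.989), Cul1 for Btg4 (0.984), Fbxw16 for Zar1 (0.986), Vcan for Mos (0.980) and Trappc5 for Elavl2 (0.979). Next in order among these genes were Wdr76 and Vil1 for Ybx2, Bpgm and Wdr20 for Cpeb1, Itgb1bp1 and Tcl1 for Dazl, and Bcar3 and Baiap2l1 for Btg4. They were Elof1 and Rnf168 for Zar1, Serpinc1 and Syngr3 for Mos, Sorcs3 and Gdpd1 for Elavl2, and Adm2 and Slc25a15 for Rbpms2.

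The partners of the members in mRNA storage were then read from a list of 26 other genes of storage and translational repression, all measured. For heterozygote minus wild type 21 were lower (median log2 difference -0.09), for labelled knockout minus wild type 19 were lower (-0.07) and for labelled knockout minus heterozygote 11 were lower (0.01). Of all probe sets 48.7%, 51.7% and 54.5% were lower by any amount in these comparisons, in the same order. These shares also apply to the lists that follow, and several list counts lie near them. None passed limma's threshold in any comparison. Patl2, an oocyte mRNA repressor, read 352, 288 and 266 in the wild types, 231, 216 and 194 in the heterozygotes and 346, 248 and 410 in the arrays labelled knockout. The pattern of Patl2 across arrays resembled that of the members, with heterozygotes wholly low, but its lowest labelled knockout stayed above all heterozygotes. Its log2 differences were -0.49 for heterozygote minus wild type (SE 0.18, adjusted p = 0.815) and 0.62 for labelled knockout minus heterozygote (adjusted p = 0.213). Cpeb2, a relative of Cpeb1, went from 275 to 283 in the wild types to 237 to 261 in the heterozygotes and 288 to 362 in the arrays labelled knockout. Unlike those of Cpeb1, its labelled knockout arrays all exceeded the wild types. The log2 difference of Cpeb2 from heterozygotes was 0.41 (SE 0.08, adjusted p = 0.135).

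Igf2bp2 and Igf2bp3 encode RNA-binding proteins that stabilise mRNA. Igf2bp2 read 758, 707 and 569 in the wild types, 527, 519 and 507 in the heterozygotes and 522, 366 and 563 in the arrays labelled knockout, with a log2 difference of -0.50 for labelled knockout minus wild type (SE 0.16, adjusted p = 0.315). Igf2bp3 read 162, 153 and 128, then 118, 128 and 123, and then 123, 89 and 117, with -0.44 (SE 0.13, adjusted p = 0.271). The labelled knockout arrays of both lay below the lowest wild type, where 7.77% of all probe sets were so separated. Both genes were named for a small p within their list, so their separation was partly set by that choice.

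Among 34 genes of poly(A) tail length and decay, the surroundings of Btg4, 23 were lower in heterozygotes than in wild types (median log2 difference -0.04), 19 were lower in labelled knockouts than in wild types (-0.03) and 16 were lower in labelled knockouts than in heterozygotes (0.01), with none past limma's threshold. Pabpc1l, the embryonic poly(A)-binding protein of oocytes, read 335, 282 and 262 in the wild types, 227, 243 and 226 in the heterozygotes and 242, 188 and 247 in the arrays labelled knockout. Both other genotypes lay below the lowest wild type, by log2 differences of -0.33 and -0.38 (SE 0.12, adjusted p = 0.815 and 0.313). Cnot3, a subunit of the CCR4-NOT complex, differed by -0.25 between labelled knockout and wild type (SE 0.07, adjusted p = 0.223), and the decapping cofactor Dcp1a by -0.31 (adjusted p = 0.436). Pabpc4, a cytoplasmic poly(A)-binding protein, differed by -0.20 from wild type (adjusted p = 0.381) and by -0.27 from heterozygote (adjusted p = 0.196).

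Of 9 RNA-binding relatives of the members 8 were lower in heterozygotes than in wild types (median log2 difference -0.07), 7 in labelled knockouts than in wild types (-0.05) and 6 in labelled knockouts than in heterozygotes (-0.09), none past limma's threshold. Elavl4, a neuronal relative of Elavl2, lay between 35 and 47 on every array. Elavl3, another, lay between 135 and 164. Rbpms, the relative of Rbpms2, read 1087 to 1090 in the wild types, 973 to 1124 in the heterozygotes and 1085 to 1304 in the arrays labelled knockout, where it was highest in knockout 2, the array in which Rbpms2 was lowest. Lin28a, a regulator of let-7 processing, differed by -0.27 between labelled knockout and wild type (SE 0.15, adjusted p = 0.560).

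The kinase cascade below MOS was read from 11 genes. Of these 8 were lower in heterozygotes than in wild types (median log2 difference -0.02), 8 in labelled knockouts than in wild types (-0.08) and 6 in labelled knockouts than in heterozygotes (-0.12), and none passed limma's threshold. Rps6ka2, a ribosomal S6 kinase downstream of MAP kinase, read 723, 845 and 812 in the wild types, 882, 836 and 886 in the heterozygotes and 536, 673 and 528 in the arrays labelled knockout. Its labelled knockout arrays lay below those of both other genotypes, by -0.46 and -0.59 on the log2 scale (SE 0.10, adjusted p = 0.155 and 0.106), and knockout 2 was the highest of them. Fbxo43, which encodes the inhibitor EMI2 that keeps the egg arrested, read 279, 321 and 251 in the wild types, 281, 252 and 225 in the heterozygotes and 209, 150 and 243 in the arrays labelled knockout, with -0.52 from wild type (SE 0.17, adjusted p = 0.332). The cyclin gene Ccnb1 differed by -0.14 between labelled knockout and wild type (SE 0.05, adjusted p = 0.369) and Ccnb2 by -0.38 between labelled knockout and heterozygote (SE 0.10, adjusted p = 0.180).

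Finally 12 mRNAs known to be under translational control in mouse oocytes were read, since they are the kind of transcript the members act on. In heterozygotes 11 were lower than in wild types (median log2 difference -0.23), in labelled knockouts 10 were lower than in wild types (-0.17) and 6 lower than in heterozygotes (-0.01). None passed limma's threshold. Sycp3, a synaptonemal complex gene, read 97, 75 and 42 in the wild types, 48, 42 and 39 in the heterozygotes and 39, 33 and 35 in the arrays labelled knockout, and wild type 1 and 2 stood above the rest. It differed by -0.91 between labelled knockout and wild type (SE 0.26, adjusted p = 0.262). Ddx4, the germ cell helicase gene, read 348, 282 and 265, then 257, 206 and 180, and then 415, 262 and 393, with 0.72 between labelled knockout and heterozygote (SE 0.20, adjusted p = 0.196). Aurka, a spindle kinase gene, differed by -0.19 between labelled knockout and wild type (SE 0.05, adjusted p = 0.251) and Cdc20, an activator of the anaphase-promoting complex, by -0.21 (SE 0.09, adjusted p = 0.468).

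**Figure D5:**
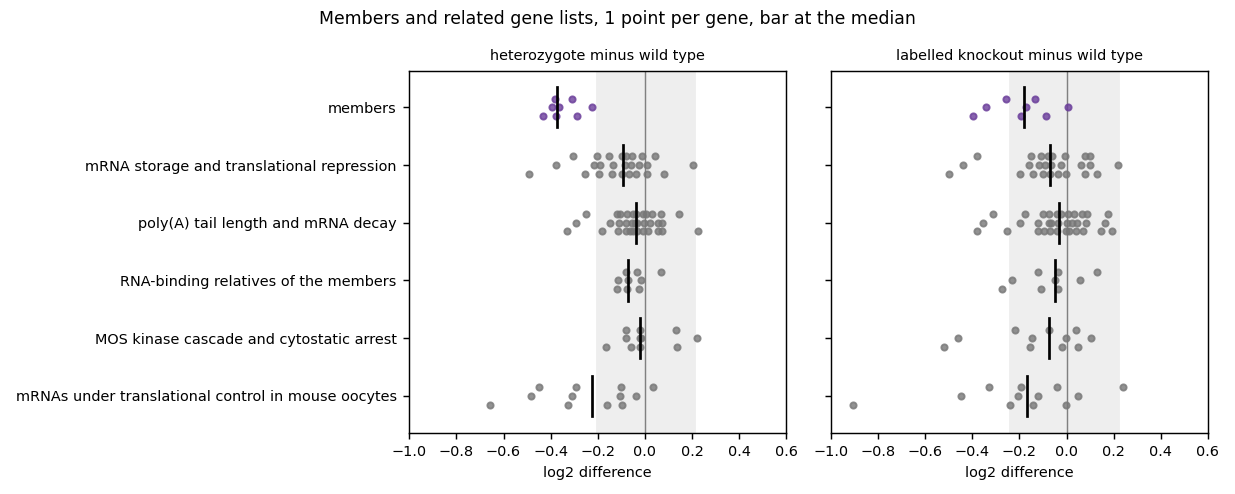
Log2 differences of heterozygote (left) and labelled knockout (right) minus wild type for the 8 members and the 5 pathway lists, with 1 point per gene, a bar at the list's median and a grey band for the 5th to 95th percentile of all probe sets. For heterozygote minus wild type the members' median is -0.37 and those of the pathway lists lie between -0.23 and -0.02. The median of the 14 oocyte markers, which are not drawn as a list, is -0.33.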

How the data were processed

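Per the series' design text, 300 ng of ovarian RNA per mouse were labelled for Mouse Gene ST arrays, and the authors derived the intensity values by RMA-Sketch in Expression Console 1.1. The deposited intensities are linear. The authors' deposited tables also hold, per the file headers, a ratio (fold of group means) and a p-value. Their intensities per array equal those of the value table, and their ratios and p-values were not recomputed. RefSeq names (GRCm38.p6) matched 18712 probe sets by accession, 2208 by symbol and 1751 by synonym. The other 2278 kept the symbol in the file.

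Here log2 values, computed from the deposited intensities, were fitted with limma 3.58.1 (R 4.3.3), in 1 model over 9 arrays, with Benjamini-Hochberg adjustment over 25100 probe sets, a two-sided test and an adjusted p threshold of 0.05. The 3166 probe sets without a symbol were left out. No further filter on low values was used, so all 8 members were tested. Relative levels and Taf4b were also tested with exact permutations (scipy 1.17.1). Levels are not compared between probe sets. The fit was tested on simulated data.

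The members, lists, tests and alternatives were chosen with earlier results of these data known. The text names the members, Taf4b, up to 4 genes a pathway list with the smallest p, and the genes most like the members (3 each, 10 for the mean). The mouse is the replicate, and 3 arrays a group limit the precision.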

Additional observations from a re-analysis of the deposited data

How the results depend on the processing

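In all settings tried, 0 of 8 members passed limma's adjusted threshold in any comparison, and for heterozygote minus wild type no probe set did. For labelled knockout minus wild type the 19 calls became 0 with only the 2 genotypes in the fit, 3 with a replicate block, 48 without the dimmest 25%, 34 with log2(intensity + 32), 199 with array weights, 30 without knockout 2 and heterozygote 1, and 2 to 20 when single arrays were left out. For labelled knockout minus heterozygote the 6 calls became 0 with only 2 genotypes, 0 with a replicate block, 11 after quantile normalization, 12 with median centring, 30 without the dimmest 25%, 152 with array weights, 409 without both arrays, and 0 to 261 when single arrays were left out (261 without knockout 2). Same-numbered arrays of different genotypes had correlations of their deviations from -0.19 to 0.33, and not every array correlated best with its own number, so the numbers were not taken as pairs.

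For labelled knockout minus wild type, leaving out single arrays gave Dazl -0.320 to 0.0395, Btg4 -0.160 to 0.0308, Mos -0.235 to 0.0227, Rbpms2 -0.291 to 0.0114, Elavl2 -0.16 to 0.15 and Zar1 -0.38 to -0.06, the last without knockout 2. Without both arrays Dazl was 0.0395, Btg4 0.0308, Mos 0.0227 and Rbpms2 0.0114. For labelled knockout minus heterozygote the ranges were -0.0932 to 0.23 for Zar1, -0.0909 to 0.16 for Ybx2 and -0.0186 to 0.28 for Cpeb1. Ybx2 was 0.19 without both arrays, 0.00074 with log2(intensity + 32) and 0.0724 with array weights, and Zar1 was -0.0019 with median centring. Relative to zona genes alone, labelled knockout minus wild type was -0.16 for Btg4 and -0.0677 for Elavl2, heterozygote minus wild type 0.0103 for Dazl, and labelled knockout minus heterozygote -0.20 for Mos, -0.13 for Elavl2 and -0.24 for Rbpms2. Leaving out single arrays, relative differences spanned 0 for Btg4 (-0.0428 to 0.11) and Mos (-0.0509 to 0.0240) in labelled knockout minus wild type, for Dazl (-0.12 to 0.0074), Mos (-0.0870 to 0.0053) and Elavl2 (-0.0450 to 0.0724) in heterozygote minus wild type, and for Dazl (-0.0792 to 0.0452), Btg4 (-0.17 to 0.0104), Mos (-0.0175 to 0.0748) and Rbpms2 (-0.0363 to 0.0650) in labelled knockout minus heterozygote.

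Counts added after seeing the data gave 3 members below for labelled knockout minus wild type without knockout 2, against 51.3% of all probe sets. For labelled knockout minus heterozygote 8 were higher without overlap without knockout 2, against 18.4%. Without both arrays 8 were, against 23.7%. In that comparison 0 were below without knockout 2, without heterozygote 1 and without both, against 53.5%, 52.6% and 51% of all probe sets. Of 456 recomputed member differences 434 kept their direction and side of the threshold, as did 147 of 168 relative differences. Part of this agreement was fixed in advance. Some settings could not change a member's log2 difference, such as a replicate block or leaving out an array outside the comparison. The exact permutation p of a relative difference could not fall below 0.1, so only its direction could change. The cause of the changes across settings was not tested.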
